A study of Mus musculus with 31 samples.

Results

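The interferon regulatory factors (IRFs) were followed in 2 sets of mouse RNA-seq libraries, primary microglia and hippocampi of tau transgenic mice. The family was taken as the 8 genes Irf1, Irf2, Irf3, Irf4, Irf5, Irf7, Irf8 and Irf9, found by gene name in the microglial table and by the same Ensembl identifier in the hippocampal table. All 8 had a row in both tables, among 54532 genes in the first and 48795 in the second. After a filter on low counts 8 of 8 could be tested among 13675 genes in microglia and 7 of 8 among 16453 genes in hippocampi, where Irf4 fell below the filter.

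Microglia were grown from the cortices of newborn pups, carried either both intact copies of Cgas (Cgas+/+) or none (Cgas-/-), and received vehicle, tau fibrils at 2 µg per ml or herring testis DNA (HT-DNA, a DNA that activates cGAS in the cytosol) at 1 µg per ml. RNA was taken 6 h later, with 3 libraries in each of the 6 groups. All these cultures had been expanded with granulocyte–macrophage colony-stimulating factor. The labels do not say whether the 3 libraries of a group came from separate cultures, so the p-values measure the spread between these libraries, which may be technical. Nor do they give a culture date, so genotype and the cultures it came from cannot be told apart. The controls are named Ctrl in Cgas+/+ and NT in Cgas-/- microglia, though the titles call both vehicle. What the vehicle held, such as a transfection reagent, is not stated in the sources used here. Hippocampi, 1 library per mouse, came from 7 non-transgenic (Ntg) mice and 6 P301S mice aged 8 to 9 months (the study's methods also give 9 to 10 months for RNA-seq), 3 females in each group and 4 Ntg and 3 P301S males. The P301S line expresses human tau with the P301S mutation from the mouse prion protein promoter, and the labels do not give the Cgas genotype of these mice.

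IRFs are transcription factors that share a DNA-binding domain and read variants of a GAAA repeat, the interferon-stimulated response element (ISRE). IRF3 is made constitutively and is switched on after translation, when the kinase TBK1 phosphorylates it downstream of cGAS and STING, and it then drives Ifnb1, the gene of interferon-β. Interferon-β acts back on its receptor and assembles ISGF3, a complex that holds STAT2 and IRF9, which in turn raises Irf7, an amplifier of the type I response. IRF1 and IRF2 bind overlapping sites, with IRF1 mostly an activator and IRF2 often its antagonist. IRF5 drives inflammatory cytokines in myeloid cells, and IRF8, which partners PU.1 (Spi1), maintains microglial and macrophage identity. IRF4, a close relative of IRF8, serves mainly lymphocytes, dendritic cells and alternatively activated macrophages.

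The microglial libraries held between 17037459 and 25174764 counts and the hippocampal libraries between 25953296 and 35779977. The targeted gene Cgas, listed under its older symbol Mb21d1, had 27.1, 18.8 and 23.5 CPM (normalized counts, scaled to a common library size) in Cgas+/+ microglia with vehicle, 35.3, 33.0 and 33.7 with tau and 39.5, 39.1 and 44.3 with HT-DNA. Cgas-/- libraries had 4.07, 5.47 and 5.23 CPM with vehicle, 7.45, 6.82 and 7.04 with tau and 3.76, 3.93 and 4.18 with HT-DNA. Cgas transcripts were therefore lower in every knockout library than in every Cgas+/+ library, and were not at 0. The cultures expressed microglial markers, with a summed 10164 to 15841 CPM over 12 microglia and macrophage genes, against 5.21 to 15.5 CPM over 8 astrocyte genes and 0.527 to 3.05 CPM over 8 neuronal genes. The same 12 microglial genes summed to 14276 to 15841 CPM in Cgas+/+ and 10164 to 10900 CPM in Cgas-/- libraries, and 11 of the 12 were lower and 1 higher in Cgas-/- microglia with vehicle, so marker levels moved with genotype. Their part in the genotype differences given here was not tested.

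Stretches of 250 bases before the RefSeq start sites were searched on both strands for 3 short motifs, the ISRE (GAAA, any 2 bases, GAAA), the interferon-gamma activated site, GAS (TTC, any 3 bases, GAA) and a kappaB site (GGGA, any 4 bases, CC). RefSeq gave 11 start sites for the 8 IRF genes. Among 32851 such windows, 2.98% held the ISRE, 7.02% the GAS and 17.6% the kappaB letters. Irf2 held an ISRE and a GAS, Irf8 held 2 GAS and 1 kappaB, Irf1 held a GAS and a kappaB on the reverse strand, and Irf4 held a kappaB. Windows of Irf3, Irf5, Irf7 and Irf9 held none of these letters, which says nothing about sites elsewhere. The sequences of Irf1, Irf2 and Irf8 are printed because they carried the ISRE or GAS letters, and that of Irf7 because this gene had the largest fold changes of the family. All are from RefSeq on GRCm38.p6, 5′ to 3′ on the strand of the gene, with capitals marking ISRE and GAS matches, of which Irf7 has none.
Irf1, chr11:53769764-53770013, plus strand: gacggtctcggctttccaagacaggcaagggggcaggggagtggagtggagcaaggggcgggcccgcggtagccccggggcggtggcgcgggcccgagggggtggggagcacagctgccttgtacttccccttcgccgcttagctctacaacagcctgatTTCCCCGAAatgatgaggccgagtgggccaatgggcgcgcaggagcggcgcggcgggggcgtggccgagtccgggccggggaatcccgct
Irf2, chr8:46739495-46739744, plus strand: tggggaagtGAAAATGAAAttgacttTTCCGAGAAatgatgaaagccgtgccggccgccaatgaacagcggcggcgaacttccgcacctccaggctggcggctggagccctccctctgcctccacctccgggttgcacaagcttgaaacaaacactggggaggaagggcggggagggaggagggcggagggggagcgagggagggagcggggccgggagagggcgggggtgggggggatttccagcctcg
Irf8, chr8:120736108-120736357, plus strand: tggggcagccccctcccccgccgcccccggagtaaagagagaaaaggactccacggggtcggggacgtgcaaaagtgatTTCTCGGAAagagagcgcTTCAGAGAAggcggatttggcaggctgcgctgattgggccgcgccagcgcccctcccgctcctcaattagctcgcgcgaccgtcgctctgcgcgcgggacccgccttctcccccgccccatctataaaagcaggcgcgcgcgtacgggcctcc
Irf7, chr7:141266425-141266674, minus strand: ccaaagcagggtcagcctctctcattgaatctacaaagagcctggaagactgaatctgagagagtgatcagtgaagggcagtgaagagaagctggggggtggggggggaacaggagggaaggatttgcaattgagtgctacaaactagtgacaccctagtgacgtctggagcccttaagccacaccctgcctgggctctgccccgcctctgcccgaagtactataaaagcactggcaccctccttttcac

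In Cgas+/+ microglia, tau fibrils raised 6 of the 8 IRF genes and HT-DNA raised 5. Irf1 and Irf7 moved most with both, Irf2, Irf5 and Irf8 by less, Irf9 rose with tau, and no change of Irf3 or Irf4 passed the test. A gene was counted as changed when the edgeR quasi-likelihood F test gave a Benjamini-Hochberg adjusted p under 0.05 over all genes tested. With tau, 28.5% of all genes passed, and the median log2 fold change was 0.33 over the 8 IRF genes and -0.01 over all genes. With HT-DNA, 47.9% of all genes passed, and the medians were 0.63 and -0.03. Both comparisons used the same 3 vehicle libraries. The 2 treatments were also compared directly, at their different doses. Against HT-DNA, 4 genes were lower with tau (Irf2, Irf5, Irf7 and Irf8) and Irf9 was higher, where 35.3% of all genes passed.

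In Cgas-/- microglia the treatments parted. Tau raised Irf1, Irf2, Irf5, Irf7, Irf8 and Irf9, 6 of 8, where 17.4% of all genes passed and the medians were 0.78 over the IRF genes and 0.01 over all genes. The IRF median here is the midpoint of Irf2 and Irf4. Irf4 was not called and had 3 to 5 counts with vehicle and 7 to 15 with tau, so this median is imprecise. HT-DNA changed 0 of 8, where 1.56% of all genes passed. By unadjusted p under 0.05 (edgeR), 2 of 8 passed with HT-DNA, Irf2 and Irf4, beside 1685 of all 13675 genes. By adjusted p, DESeq2 also called 0 members. The medians with HT-DNA were 0.10 over the IRF genes and 0.01 over all genes. The Cgas-/- HT-DNA libraries were less alike than those of the other microglial groups. Their pairs had a chi-square per gene of 4.15 to 28.0, against 2.32 to 10.7 elsewhere. A wider spread makes small changes harder to call, so 0 of 8 does not show that HT-DNA had no effect.

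**Figure D1:**
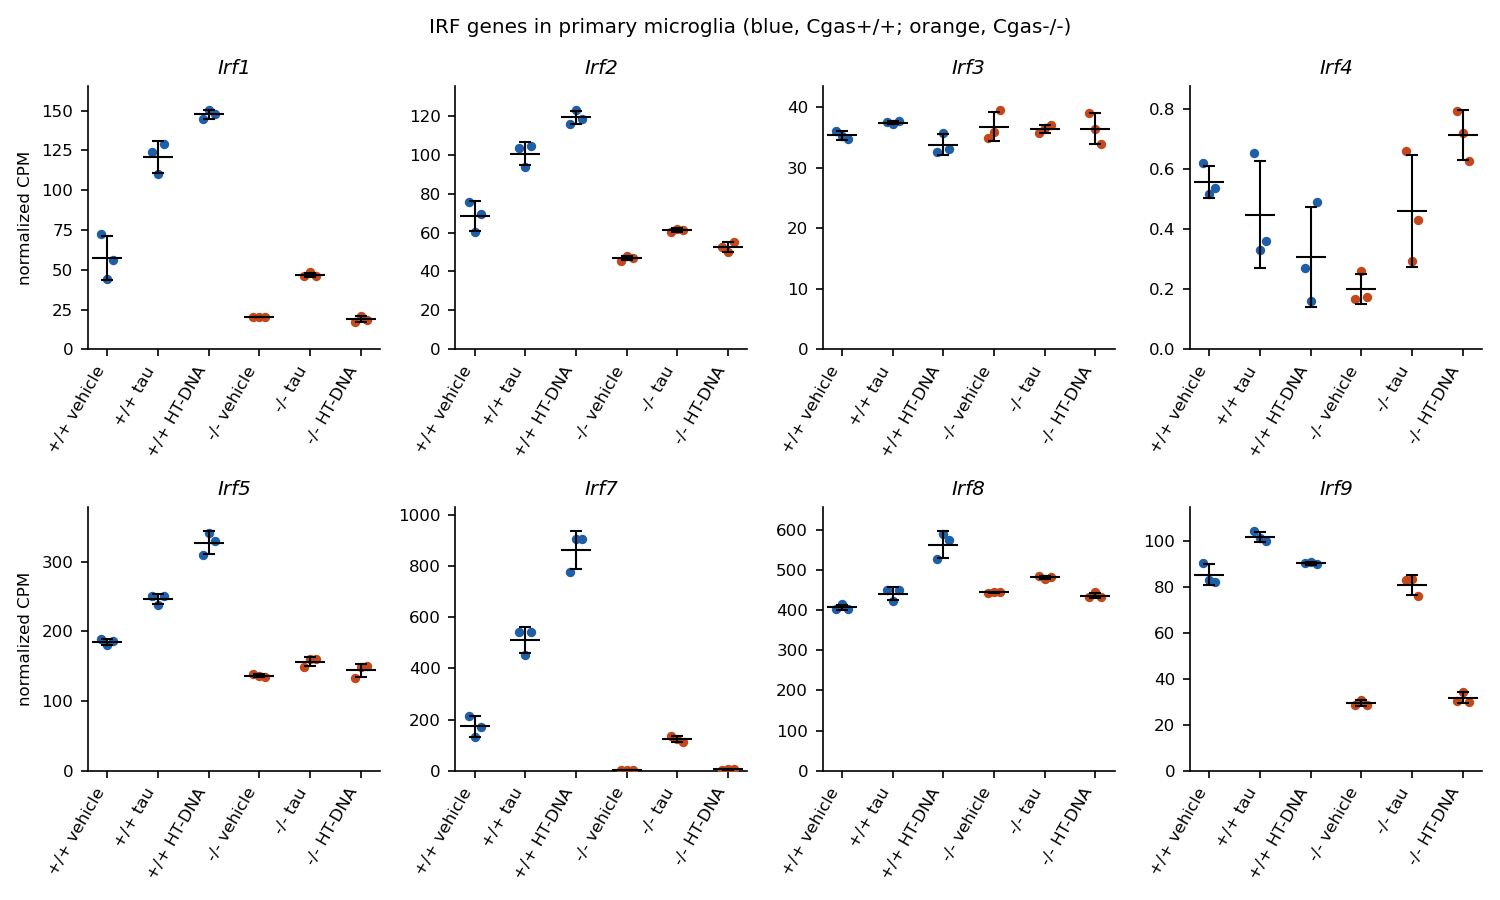
Normalized CPM (vertical axes, linear, from 0) of the 8 IRF genes in the 6 microglial groups, 3 points per group for its 3 libraries, with the mean and SD as black bars, blue for Cgas+/+ and orange for Cgas-/-. Irf7 stood at 134 to 215 CPM in the Cgas+/+ vehicle libraries and at 3.63 to 4.69 CPM in the Cgas-/- vehicle libraries, whereas Irf3 stayed between 32.5 and 39.5 CPM in all 18 libraries.

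Most of the family was lower in Cgas-/- microglia before any stimulus. With vehicle, Cgas-/- microglia had 6 of 8 IRF genes lower than Cgas+/+ microglia (Irf1, Irf2, Irf4, Irf5, Irf7 and Irf9) and Irf8 slightly higher, where 52.1% of all genes passed in either direction. The median log2 difference was -1.002 over the IRF genes and -0.01 over all genes. That IRF median is the midpoint of Irf2 and Irf4, so it rests in part on the low counts of Irf4. With tau, 5 were lower (Irf1, Irf2, Irf5, Irf7 and Irf9) and Irf8 was higher, where 51.5% of all genes passed, with medians of -0.49 and 0.01. With HT-DNA, 6 were lower, Irf8 now among them, and Irf4 was higher, where 63.2% of all genes passed, with medians of -1.18 and 0.05. Irf3 passed in none of these comparisons. Irf4, with 3 to 18 counts per library, passed the filter only through its highest groups, and without that filter its calls with vehicle and HT-DNA were lost (adjusted p = 0.0842 and 0.102, edgeR), which leaves 5 lower with vehicle and none higher with HT-DNA.

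The responses themselves were compared between the genotypes with an interaction term. For tau, Irf7 and Irf9 rose by more log2 units in Cgas-/- than in Cgas+/+ microglia and Irf5 by fewer, 3 of 8 IRF genes, where 7.55% of all genes passed. For HT-DNA, the responses of Irf1, Irf2, Irf5, Irf7 and Irf8 were smaller in Cgas-/- microglia and that of Irf4 was higher, 6 of 8, where 34.5% of all genes passed. The Irf4 difference rests on those same low counts. Both interactions used all the vehicle libraries again, so they are not independent of the comparisons above. Groups of 3 against 3 libraries cannot reach an exact permutation p below 0.1, so these tests rest on the fit across all genes.

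**Figure D2:**
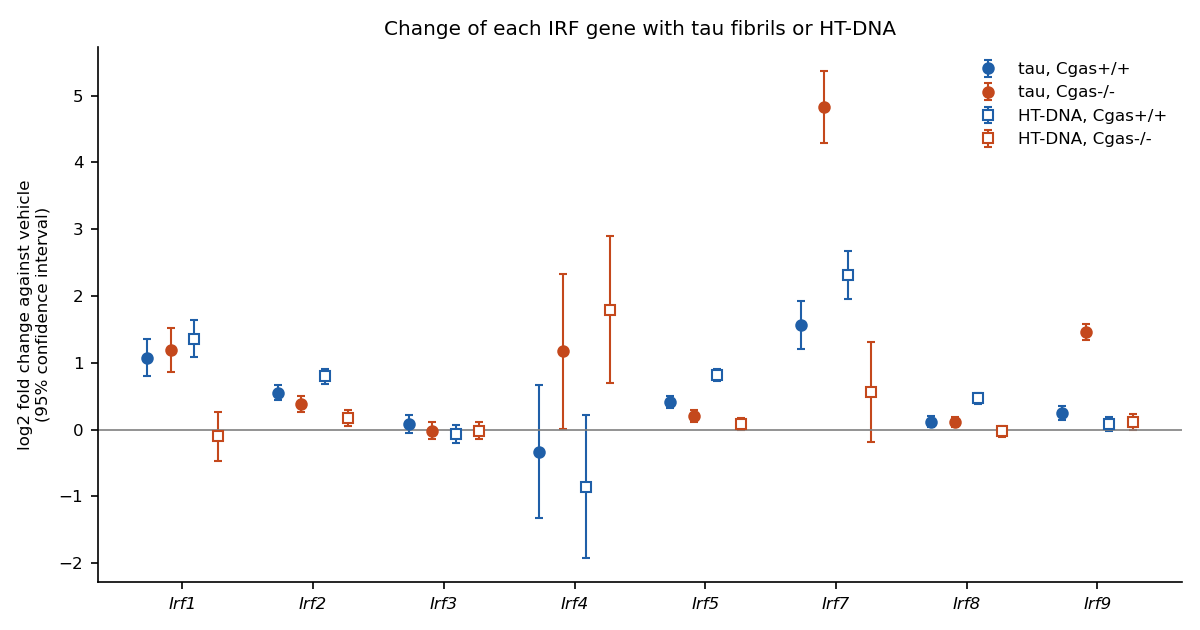
Log2 fold change against vehicle (vertical axis) of each IRF gene with tau (circles) or HT-DNA (open squares) in Cgas+/+ (blue) and Cgas-/- (orange) microglia, with 95% confidence intervals from the edgeR fit. The tau response of Irf7 in Cgas-/- microglia lay at 4.83 and that in Cgas+/+ microglia at 1.57, while the HT-DNA responses in Cgas-/- microglia lay between -0.10 and 0.56 for every member but Irf4, which had 3 to 18 counts per library.

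Irf9 (chr14:55603571-55610030, plus strand, GRCm38) encodes the DNA-binding subunit of ISGF3. Its Cgas+/+ libraries had 90.6, 83.2 and 82.3 CPM with vehicle, 104, 101 and 100 CPM with tau and 90.3, 91.0 and 89.8 CPM with HT-DNA. Its Cgas-/- libraries had 28.7, 30.9 and 28.5 CPM with vehicle, 83.1, 83.5 and 76.0 CPM with tau and 30.5, 34.4 and 30.1 CPM with HT-DNA. Tau thus brought every Cgas-/- library into or just below the range of the Cgas+/+ vehicle libraries, and HT-DNA left the knockout libraries overlapping their vehicle group. Tau raised Irf9 by 1.46 (log2 fold change, SE 0.0569, adjusted p = 9.95e-27, edgeR) in Cgas-/- and by 0.25 (SE 0.0513, adjusted p = 7.86e-05) in Cgas+/+ microglia. The difference between these responses was 1.21 (SE 0.0767, adjusted p = 8.81e-17), and of the 13675 genes tested none had a smaller p for the interaction of tau with genotype. On the CPM scale the tau response was also larger in Cgas-/- microglia, 51.5 ± 2.57 against 16.4 ± 2.89 (difference of means ± SE, n = 3 per group). With HT-DNA the log2 fold change in Cgas+/+ microglia was 0.08, with a 95% confidence interval of -0.0225 to 0.186.

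Between genotypes, Irf9 was 2.91-fold lower in Cgas-/- microglia with vehicle (log2 -1.54, adjusted p = 1.81e-28) and 2.85-fold lower with HT-DNA (log2 -1.51, adjusted p = 3.18e-29), but 1.26-fold lower with tau (log2 -0.33, adjusted p = 2.42e-07). In the order of group means, Cgas-/- with tau did not differ from Cgas+/+ with vehicle (adjusted p = 0.203), nor Cgas+/+ with HT-DNA from Cgas+/+ with vehicle (0.198), nor the knockout groups with HT-DNA and vehicle from each other (0.468), all by the edgeR test. Irf9 overlaps Rnf31 on the same strand, and how reads from the shared stretch were counted is not given in the sources used here. Rnf31 means in Cgas+/+ microglia were 54.1 CPM with vehicle, 76.9 with tau and 96.7 with HT-DNA. Those in Cgas-/- microglia were 26.5, 44.5 and 26.9 CPM. Rnf31 thus shared the lower level without Cgas and the rise with tau. It rose with HT-DNA in Cgas+/+ microglia, where Irf9 did not detectably. Its difference between the tau responses was 0.24 (adjusted p = 0.152, edgeR) where Irf9 had 1.21. The part of shared reads in the Irf9 values was not tested.

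Stat2, which encodes a partner of IRF9 in ISGF3, shared with Irf9 the rise with tau in both genotypes, but HT-DNA raised it in Cgas+/+ microglia. It had 351, 215 and 296 CPM with vehicle, 607, 540 and 598 with tau and 775, 808 and 794 with HT-DNA in Cgas+/+ microglia. Its Cgas-/- libraries had 23.5, 25.9 and 22.9 CPM with vehicle, 162, 164 and 156 with tau and 23.8, 27.5 and 26.9 with HT-DNA. The groups with vehicle and tau did not overlap in either genotype, and the knockout libraries with tau stayed below every Cgas+/+ library. The tau response was larger on the log2 scale in Cgas-/- microglia by 1.72 (adjusted p = 0.00015, edgeR), whereas on the CPM scale the direction turned, with group means going from 287 ± 68.4 to 582 ± 36.3 CPM in Cgas+/+ and from 24.1 ± 1.6 to 161 ± 3.94 CPM in Cgas-/- microglia (SD, n = 3). With HT-DNA against vehicle, the log2 fold change of Stat2 in Cgas+/+ microglia was 1.46 (adjusted p = 4.54e-07), beside 0.08 for Irf9.

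**Figure D3:**
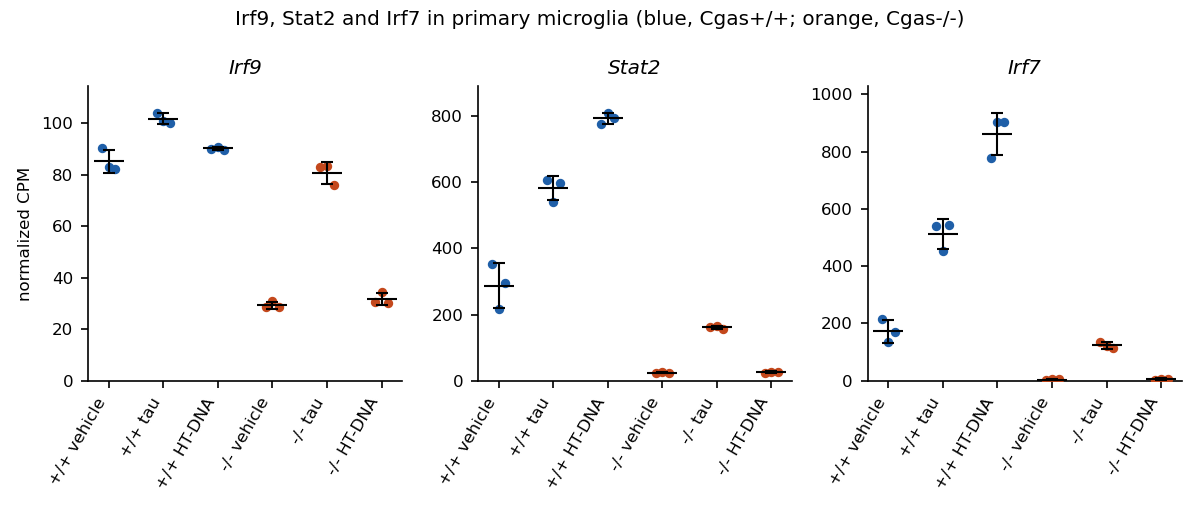
Normalized CPM (vertical axes, linear, from 0) of the ISGF3 genes Irf9 and Stat2 and of Irf7 in the 6 microglial groups, 3 libraries per group with mean and SD. Irf9 had nearly the same CPM in the Cgas+/+ vehicle, Cgas+/+ HT-DNA and Cgas-/- tau groups, whereas Stat2 and Irf7 were highest in every Cgas+/+ HT-DNA library.

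Irf7 (chr7:141262706-141266481, minus strand) encodes the amplifier of type I interferon and had the widest range of the family. Its Cgas+/+ libraries had 215, 134 and 170 CPM with vehicle, 540, 453 and 543 CPM with tau and 777, 904 and 904 CPM with HT-DNA. Cgas-/- libraries held 3.63, 4.69 and 4.62 CPM with vehicle, 135, 122 and 113 CPM with tau and 3.92, 7.74 and 7.10 CPM with HT-DNA. Every tau library lay above every vehicle library in both genotypes, and 1 of the 3 knockout libraries with tau reached the lowest Cgas+/+ vehicle library. The rise with tau was 2.96-fold in Cgas+/+ (log2 1.57, SE 0.163, adjusted p = 5.35e-06, edgeR) and 28.4-fold in Cgas-/- microglia (log2 4.83, SE 0.246, adjusted p = 5.31e-09), a difference of 3.26 log2 units (SE 0.307, adjusted p = 3.18e-05). The direction of that difference depended on the scale, since in CPM Irf7 rose by 339 ± 37.9 in Cgas+/+ and by 119 ± 6.48 in Cgas-/- microglia (± SE, n = 3 per group).

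HT-DNA raised Irf7 4.98-fold in Cgas+/+ microglia (log2 2.32, SE 0.166, adjusted p = 5.48e-08). Without Cgas its log2 fold change was 0.56, with a 95% confidence interval of -0.185 to 1.31 (adjusted p = 0.569), and the HT-DNA response was lower there by 1.76 (log2 -1.76, SE 0.394, adjusted p = 0.00344). Without Cgas, Irf7 was 39.8-fold lower with vehicle (log2 -5.32, adjusted p = 4.27e-10), 4.15-fold lower with tau (log2 -2.05, adjusted p = 1.91e-07) and 134-fold lower with HT-DNA (log2 -7.07, adjusted p = 4.16e-12). Of the 5 neighbouring pairs in its order of group means, only Cgas-/- with HT-DNA and Cgas-/- with vehicle did not differ. Irf7 overlaps Phrf1 on the opposite strand, and Phrf1 had a log2 difference of -0.0013 (adjusted p = 0.986) between the genotypes with vehicle.

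Irf3 (chr7:44997648-45002848, plus strand), the constitutive partner of Irf7, had between 32.5 and 39.5 CPM in all 18 microglial libraries. Its group means ran from 33.8 ± 1.73 CPM in Cgas+/+ with HT-DNA to 37.4 ± 0.271 CPM in Cgas+/+ with tau (SD, n = 3), and no neighbouring pair of groups differed. The log2 differences in the 10 microglial comparisons lay between -0.10 and 0.15, the largest being tau against HT-DNA in Cgas+/+ microglia (0.15, 95% confidence interval 0.017 to 0.279, adjusted p = 0.0721).

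Ifnb1, a direct target of IRF3, was counted 10, 0 and 3 times in the Cgas+/+ vehicle libraries, 11, 1 and 2 times with tau and 71, 96 and 83 times with HT-DNA. In Cgas-/- microglia it had 1 count in 1 tau library and 0 in the other 8 libraries. HT-DNA thus stood apart from vehicle and tau in Cgas+/+ microglia (log2 4.44 against vehicle, adjusted p = 4.1e-07), whereas the tau and vehicle counts overlapped. Over a list of 14 targets of IRF3 and ISGF3, tau raised 13 and HT-DNA 14 in Cgas+/+ microglia (medians 1.88 and 2.74), and in Cgas-/- microglia tau raised 13 and HT-DNA 0 (medians 5.45 and 0.71). All 14 were lower in Cgas-/- microglia with vehicle, tau and HT-DNA alike. The median with HT-DNA was -8.48, or -7.97 with Ifnb1, which had no count there, at the bound that 3 counts over the group allow. For tau, 10 of the 14 responses were larger on the log2 scale in Cgas-/- microglia, led by Ifit3 with a difference of 4.72 (adjusted p = 0.000248) and Ifit1 with 4.30 (adjusted p = 0.000396), and 0 were smaller. These responses started from lower levels in Cgas-/- microglia (median log2 difference with vehicle -6.27) and were not compared on the CPM scale, where the direction can turn. The median of that difference without Ifnb1 was 3.42 over this list, beside 0.02 over all genes.

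The kinases and adaptors that lead to IRF phosphorylation formed a list of 14 genes. Tbk1, the kinase of IRF3, had 85.2 to 88.4 CPM with vehicle, 117 to 125 with tau and 145 to 148 with HT-DNA in Cgas+/+ microglia, and 61.5 to 66.1, 70.9 to 73.9 and 62.7 to 65.7 CPM in Cgas-/- microglia. Ikbke, the related kinase IKKε, had 24.5 to 28.3 CPM with vehicle, 59.6 to 61.2 with tau and 34.96 to 37.3 with HT-DNA in Cgas+/+ microglia, and 37.1 to 42.6, 83.6 to 87.0 and 33.9 to 37.8 CPM in Cgas-/- microglia. Both kinases rose with tau in both genotypes, and Ikbke was higher in Cgas-/- libraries with tau than in any other library. Tau raised 7 of the 14 and lowered 1 (Mavs, log2 -0.16) in Cgas+/+ microglia and raised 6 in Cgas-/- microglia, and HT-DNA raised 10 and lowered 1 (Mavs, log2 -0.26) in the first and changed 0 in the second. With vehicle, 11 of the 14 were lower and 2 higher in Cgas-/- microglia, the higher being Ikbke by 0.54 and Chuk by 0.14 (log2). Of all genes, 28.5% passed with tau and 47.9% with HT-DNA in Cgas+/+ microglia, and 17.4% and 1.56% in Cgas-/- microglia. Between genotypes with vehicle, 52.1% of all genes passed. The list medians in these 5 comparisons were 0.15, 0.30, 0.14, 0.02 and -0.31 (log2).

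Irf1 (chr11:53770014-53778374, plus strand), an activator of antigen presentation and guanylate-binding protein genes, had 72.2, 44.1 and 55.9 CPM with vehicle, 124, 110 and 129 CPM with tau and 145, 150 and 148 CPM with HT-DNA in Cgas+/+ microglia. In Cgas-/- microglia it had 20.5, 20.2 and 20.4 CPM with vehicle, 46.04, 48.3 and 45.9 CPM with tau and 17.3, 21.05 and 18.5 CPM with HT-DNA. Every tau library lay above every vehicle library in both genotypes, whereas HT-DNA lay above vehicle in Cgas+/+ microglia and overlapped it in Cgas-/- microglia. Tau raised Irf1 2.11-fold in Cgas+/+ (log2 1.08, SE 0.128, adjusted p = 1.92e-05) and 2.29-fold in Cgas-/- microglia (log2 1.20, SE 0.151, adjusted p = 5.5e-05). The difference was 0.12 log2 units with a 95% confidence interval of -0.31 to 0.555, which does not show that the responses were equal. HT-DNA raised it 2.57-fold in Cgas+/+ microglia (log2 1.36, adjusted p = 8.85e-07), and the response in Cgas-/- microglia was lower by 1.46 (log2 -1.46, adjusted p = 0.000101). Without Cgas it was 2.82-fold lower with vehicle, 2.59-fold lower with tau and 7.75-fold lower with HT-DNA (adjusted p = 1.71e-06, 9.11e-07 and 3.77e-10). Among the group means, Cgas-/- with tau did not differ from Cgas+/+ with vehicle (adjusted p = 0.0843).

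Over a list of 16 IRF1 targets, of which 15 could be tested, tau and HT-DNA each raised 15 in Cgas+/+ microglia (medians 1.33 and 1.93), and tau raised 13 and HT-DNA 0 in Cgas-/- microglia (medians 1.44 and -0.10). For tau, 1 response was larger in Cgas-/- microglia, Gbp3 with 1.49 (adjusted p = 0.0357), and 2 were smaller, Casp1 with -0.41 and Psmb10 with -0.34. For HT-DNA, 14 of 15 were smaller.

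Irf2 (chr8:46739732-46847458, plus strand), the frequent antagonist of IRF1 at shared sites, rose together with it by less. It had 60.4 to 75.7 CPM with vehicle, 93.6 to 104 with tau and 116 to 123 with HT-DNA in Cgas+/+ microglia, and 45.6 to 47.8, 60.3 to 61.99 and 49.997 to 55.01 CPM in Cgas-/- microglia. Tau and HT-DNA did not overlap vehicle in Cgas+/+ microglia, and neither treatment overlapped it in Cgas-/- microglia. The log2 fold changes in Cgas+/+ microglia were 0.55 with tau (adjusted p = 2.44e-11) and 0.80 with HT-DNA (adjusted p = 5.46e-17), and in Cgas-/- microglia 0.39 with tau (adjusted p = 9.4e-07) and 0.17 with HT-DNA (adjusted p = 0.182). The tau responses differed by -0.16 (95% confidence interval -0.328 to 0.00121) and the HT-DNA responses by -0.63 (adjusted p = 1.69e-08). Irf2 was lower in Cgas-/- microglia by 0.55 with vehicle, 0.71 with tau and 1.18 with HT-DNA (log2 -0.55, -0.71 and -1.18).

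Irf5 (chr6:29526625-29541871, plus strand), which drives cytokine genes such as Tnf, Il6 and Il12b, had 180 to 189 CPM with vehicle, 238 to 251 with tau and 309 to 342 with HT-DNA in Cgas+/+ microglia. Its Cgas-/- libraries had 135 to 139 CPM with vehicle, 149 to 161 with tau and 134 to 150 with HT-DNA. The 3 Cgas+/+ groups did not overlap, while in Cgas-/- microglia only tau stood clear of vehicle. Tau raised Irf5 by 0.41 in Cgas+/+ (log2, adjusted p = 3.13e-11) and by 0.20 in Cgas-/- microglia (adjusted p = 0.000438), a difference of -0.21 (adjusted p = 0.0227), and HT-DNA raised it by 0.82 in Cgas+/+ microglia (adjusted p = 2.46e-22). The call on the tau difference was lost without Cgas+/+ vehicle library 2, Cgas+/+ tau library 3, Cgas-/- vehicle library 1 or Cgas-/- tau library 1, with adjusted p = 0.0662 to 0.0723 by edgeR. Of 6 listed IRF5 targets 4 could be tested, and tau raised all 4 in both genotypes. The median over these 4 was 5.34 in Cgas+/+ and 3.26 in Cgas-/- microglia. Il12b had no count in the Cgas-/- vehicle libraries, and the Cgas-/- median was the same with it at the bound from 3 counts over the group. Without Il12b the Cgas-/- median was 3.03. Tnf had a smaller response in Cgas-/- microglia with tau (log2 difference -1.40, adjusted p = 0.00066) and with HT-DNA (-1.71, adjusted p = 1.14e-05).

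Irf8 (chr8:120736358-120756694, plus strand), the myeloid identity factor, was the steadiest of the responding genes. It had 402, 415 and 402 CPM with vehicle, 450, 422 and 451 CPM with tau and 526, 589 and 574 CPM with HT-DNA in Cgas+/+ microglia. The Cgas-/- libraries had 443, 444 and 446 CPM with vehicle, 484, 478 and 482 CPM with tau and 432, 444 and 431 CPM with HT-DNA. It was the 1 member higher without Cgas at rest, and HT-DNA raised it in Cgas+/+ but not detectably in Cgas-/- libraries. The log2 fold changes with tau were 0.12 in each genotype (adjusted p = 0.0201 in Cgas+/+ and 0.0341 in Cgas-/- microglia), and their difference was -0.00185 with a 95% confidence interval of -0.114 to 0.111. Both tau calls were fragile, since that in Cgas-/- microglia was lost with RLE scaling (adjusted p = 0.0679), DESeq2 (0.0525) and without any 1 of its 6 libraries, and that in Cgas+/+ microglia without vehicle library 1 or 3 or tau library 1 or 3 (adjusted p = 0.0645 to 0.107). HT-DNA raised it by 0.47 in Cgas+/+ microglia (adjusted p = 1.02e-14), and the response was lower in Cgas-/- microglia by 0.50 (log2 -0.50, adjusted p = 2.24e-10). Without Cgas it was higher by 0.13 with vehicle (adjusted p = 0.00532) and with tau (adjusted p = 0.00589) and lower by 0.37 with HT-DNA (log2 -0.37, adjusted p = 1.11e-11).

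Spi1, the gene of the partner PU.1, had 339 to 359 CPM with vehicle, 408 to 455 with tau and 358 to 395 with HT-DNA in Cgas+/+ microglia, and 305 to 314, 347 to 362 and 321 to 337 CPM in Cgas-/- microglia. Among 8 partners of IRF4 and IRF8 that could be tested of 9 listed, tau raised 4 and lowered 2 in Cgas+/+ microglia, with Batf2 up by 1.79 and Batf3 down by 0.79 (log2 1.79 and -0.79). The median over these partners was 0.26 (log2), where 28.5% of all genes passed. Over a list of 8 myeloid IRF8 targets, 6 were lower and 2 higher in Cgas-/- microglia with vehicle, with Klf4 higher by 1.54 (log2, adjusted p = 8.07e-19, edgeR) and Aif1 lower (log2 -0.997, adjusted p = 9.78e-14), and 4 of these 8 genes also stand in the microglial marker lists. In that comparison 52.1% of all genes passed. The list median was -0.49, or -0.39 without Il12b, which had no count in Cgas-/- vehicle libraries.

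Irf4 (chr13:30749226-30766976, plus strand) was near the limit of detection, with 10 to 14 counts per library in Cgas+/+ vehicle, 7 to 12 in Cgas+/+ tau, 3 to 9 in Cgas+/+ HT-DNA, 3 to 5 in Cgas-/- vehicle, 7 to 15 in Cgas-/- tau and 15 to 18 in Cgas-/- HT-DNA. It passed the filter through the groups in which it was highest. It was lower in Cgas-/- microglia with vehicle (log2 -1.45, SE 0.566, adjusted p = 0.0277) and higher with HT-DNA (log2 1.19, SE 0.513, adjusted p = 0.0391), and its HT-DNA responses differed by 2.65 (SE 0.764, adjusted p = 0.0048). None of the 5 neighbouring pairs in its order of means differed, and its calls between genotypes were lost without a filter on low counts (adjusted p = 0.0842 with vehicle and 0.102 with HT-DNA).

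In the hippocampus, P301S mice had higher Irf7, Irf8 and Irf9 than Ntg mice, 3 of the 7 IRF genes tested, where 1.5% of all genes passed. The median log2 fold change was 0.83 over these 7 and 0.0013 over all genes. Irf1 and Irf5 had higher means in P301S mice without passing the test, and Irf2 and Irf3 stayed close. In bulk tissue, more cells of a type and more RNA per cell cannot be told apart.

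The 3 called genes split the P301S mice. Irf7 had 8.19, 7.61, 1.82, 2.24, 19.2 and 13.5 CPM in P301S mice 29, 36, 43, 63, 65 and 77, against 1.14 to 2.34 CPM in Ntg mice (median 1.68). Irf8 had 23.1, 22.0, 5.39, 6.29, 24.2 and 10.9 CPM in the same order, against 4.38 to 6.67 CPM (median 5.21). Irf9 had 19.8, 17.8, 8.30, 10.05, 28.1 and 23.0 CPM, against 6.13 to 8.88 CPM (median 7.27). Mice 29, 36, 65 and 77 lay above every Ntg mouse for all 3 genes, mouse 63 for Irf9 alone and mouse 43 for none of them. The fold changes were 5.34 for Irf7 (log2 2.42, SE 0.461, adjusted p = 0.0317), 2.95 for Irf8 (log2 1.56, SE 0.326, adjusted p = 0.0339) and 2.36 for Irf9 (log2 1.24, SE 0.238, adjusted p = 0.0317), by the edgeR test. An exact two-sided permutation test over the 1716 splits of 13 mice gave p = 0.00233 for Irf7, 0.00408 for Irf8 and 0.00175 for Irf9 (smallest possible 0.000583, 8 genes tested this way). The edgeR calls on all 3 were lost when any 1 of 9 mice was left out (P301S 29, 36 or 65, or Ntg 35, 46, 61, 62, 68 or 71), while their log2 fold changes stayed between 1.06 and 2.63. Without a filter on low counts, where 0.582% of all genes passed, the calls on Irf7 and Irf8 were lost (adjusted p = 0.053 and 0.0673, edgeR).

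**Figure D4:**
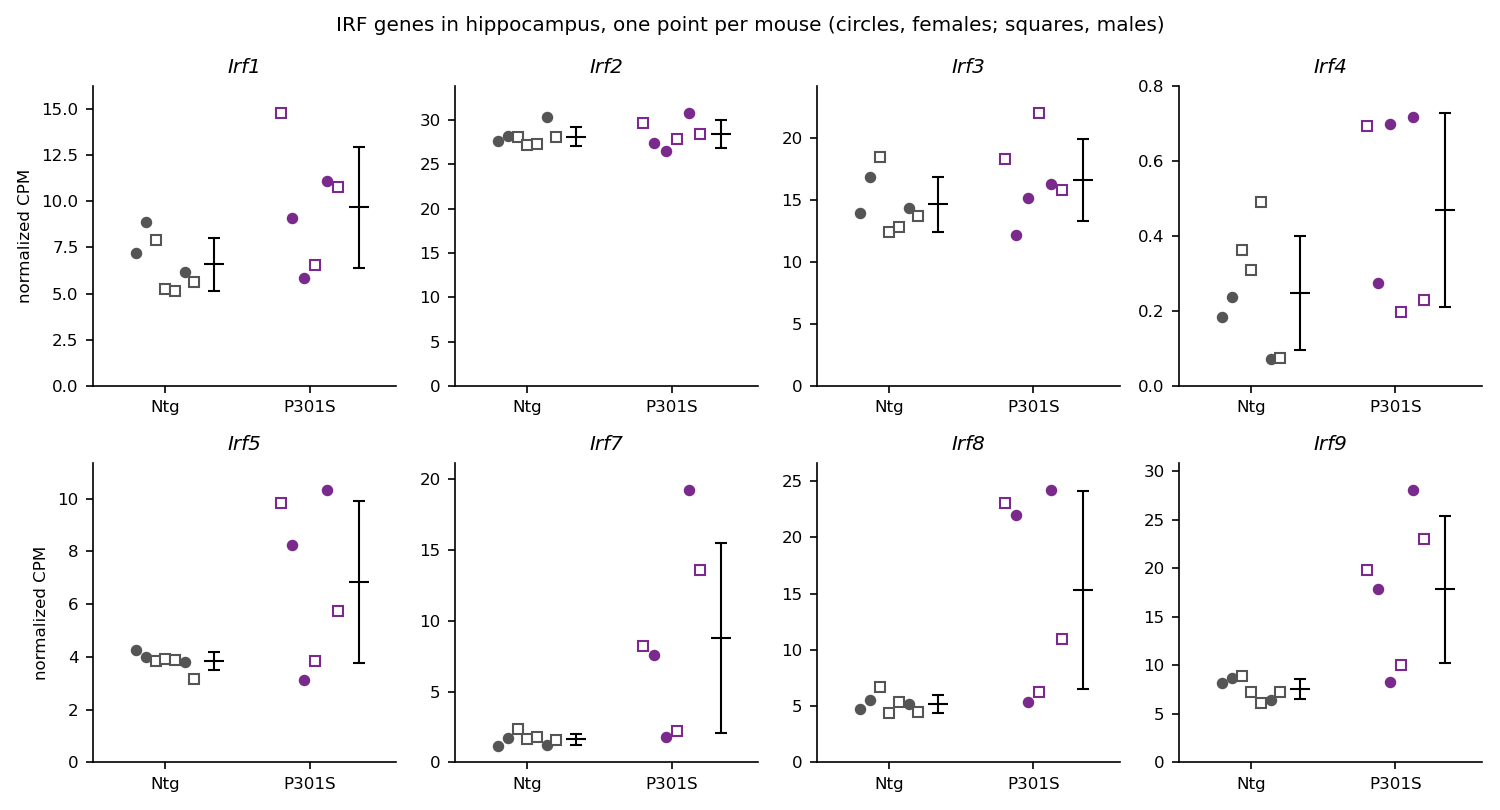
Normalized CPM (vertical axes, linear, from 0) of the 8 IRF genes in hippocampus, 1 point per mouse, circles for females and open squares for males, with the group mean and SD beside the points. For Irf7 and Irf8, 4 of the 6 P301S mice lay above every Ntg mouse, and for Irf9 5 of the 6, whereas the Irf2 points of the groups overlapped.

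Irf5 had 9.84, 8.23, 3.12, 3.85, 10.3 and 5.76 CPM in the same 6 mice, against 3.14 to 4.28 CPM in Ntg mice (log2 0.83, 95% confidence interval 0.308 to 1.36, adjusted p = 0.0983, exact permutation p = 0.0367). DESeq2 called it (adjusted p = 0.0245). Irf1 had 14.8, 9.08, 5.85, 6.56, 11.1 and 10.7 CPM, against 5.12 to 8.89 CPM (log2 0.55, 95% confidence interval 0.113 to 0.995, adjusted p = 0.193, exact permutation p = 0.0455). For both genes the same 4 mice lay above every Ntg mouse and mice 43 and 63 did not. Irf3 ranged from 12.2 to 22.0 CPM in P301S and 12.4 to 18.4 CPM in Ntg mice (log2 0.18, adjusted p = 0.558), and Irf2 from 26.4 to 30.7 and 27.1 to 30.3 CPM (log2 0.015, 95% confidence interval -0.100 to 0.131). Irf4, not tested by edgeR, had 6 to 21 counts in P301S and 2 to 14 in Ntg mice (exact permutation p = 0.0997). Of the 8 members, mouse 65 lay above every Ntg mouse for 7, mouse 29 for 6, mice 36 and 77 for 5, mouse 63 for 2 and mouse 43 for 1. The share of all genes above every Ntg mouse was not computed, so these counts describe the mice and not a trait of the family.

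Microglial markers moved in part with these values. The summed CPM of 12 microglia and macrophage markers was 1939.6, 1820.4, 499, 591, 2000.2 and 1017 in P301S mice 29, 36, 43, 63, 65 and 77, against 462 to 563 in Ntg mice, and 5 of the 12 were called higher and 0 lower. Mice 43 and 63, with the lowest Irf1, Irf5, Irf7, Irf8 and Irf9 of their group, had the lowest sums as well. Mouse 77 had a lower sum than mice 29 and 36 but higher Irf7 and Irf9, and lower Irf5 and Irf8. The sum of 10 disease-associated microglial markers was 1563 to 3923 in P301S and 1563 to 2244 in Ntg mice, with mouse 77 at 2066. The sum of 7 homeostatic microglial markers was 234 to 457 in P301S and 240 to 299 in Ntg mice, with 0 of 7 called. With the mean of these homeostatic markers as a covariate, the log2 fold changes were 1.49 for Irf7 (adjusted p = 0.0255), 0.87 for Irf9 (adjusted p = 0.0183) and 1.02 for Irf8 (adjusted p = 0.0529), so the call on Irf8 was lost. The 8 astrocyte markers summed to 4916 to 8651 CPM in P301S and 4659 to 5472 CPM in Ntg mice. The 6 T cell markers summed to 1.02 to 4.92 and 1.02 to 2.39 CPM. The covariate held the homeostatic markers alone. The sum of 12 microglia and macrophage markers, the astrocyte markers and the T cell markers were not used as covariates. The part of these cell types in the IRF differences was not tested.

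**Figure D5:**
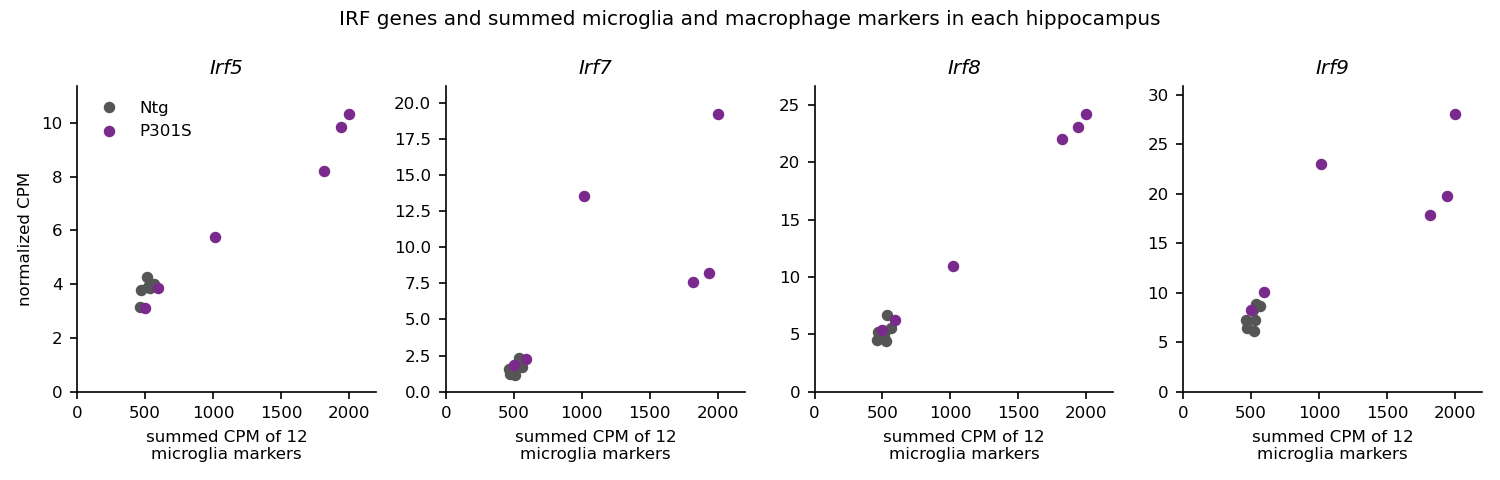
Normalized CPM of Irf5, Irf7, Irf8 and Irf9 (vertical axes) against the summed CPM of 12 microglia and macrophage markers (horizontal axes) in each of 13 hippocampi, grey for Ntg and purple for P301S mice. The P301S mice with sums of 1017 to 2000.2 CPM carried the high IRF values, and the P301S mice with sums of 499 and 591 CPM lay near the Ntg mice. Mouse 77, at 1017 CPM, had higher Irf7 and Irf9 but lower Irf5 and Irf8 than mice 29 and 36, whose sums were larger.

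Around the members in the hippocampus, 8 of 10 tested targets of IRF3 and ISGF3 were higher in P301S mice and 0 lower (median log2 2.54), with Cxcl10 up by 4.72 (adjusted p = 0.0153) and Ifi44 by 3.15 (adjusted p = 0.0317). Of 13 tested IRF1 targets 6 were higher and 0 lower (median 1.098), led by Nlrc5 with 2.17 and Gbp3 with 2.01. Of 7 tested IRF8 targets 2 were higher, Ly86 by 1.71 and Ctss by 1.69, and Ctss also stands in the microglial marker list. None of the 14 kinases and adaptors was called. Stat2 (log2 0.50, adjusted p = 0.0844), Spi1 (1.08, 0.0651) and Cgas (0.35, 0.388) did not pass, and Stat3 did (0.52, adjusted p = 0.038). Ifnb1 had at most 1 count in any hippocampus.

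The genotype difference did not detectably depend on sex for the members. The sex by genotype interaction was called for 0 of 7 tested members, where 0% of all genes passed by edgeR, with 3881 genes but 0 members at an unadjusted p under 0.05, and DESeq2 called 0 members beside 6.61% of all genes. Irf7 had 1.37 ± 0.314 CPM in Ntg and 9.56 ± 8.87 CPM in P301S females, and 1.84 ± 0.349 and 7.99 ± 5.66 CPM in males (SD, n = 3, 3, 4 and 3). The interaction for Irf7 was -0.68 with a 95% confidence interval of -2.79 to 1.43, wide enough to hold a large difference in either direction.

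The genes whose log2 CPM followed each member most closely over the 18 microglial libraries are given as a description, since all share the same groups. Irf7 was followed by Ifi211, Ifit2 and Slfn5 (Pearson r = 0.998 each), Irf1 by Sp110, Pml and Tor3a (0.995 to 0.996), Irf5 by Clic4, Slc15a3 and Trip12 (0.993 to 0.996) and Irf2 by Myd88, Ssfa2 and Apobec3 (0.993 to 0.994). Irf9 was followed by Rtp4, Oasl2 and Trim34a (0.975 to 0.986), and Irf8 by Hpse, Ttc39b and Ktn1 (0.938 to 0.946). The closest genes to Irf3 reached 0.758 (Adck5) and those to Irf4 0.716 (Slc27a4).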

How the data were processed

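Gene-level RNA-seq was analysed for 18 primary microglia libraries and 13 hippocampi. The authors deposited raw counts per gene, not normalized, in 1 table for each tissue. The submitters' processing notes name GRCm38, edgeR and limma, and the aligner and the counter are not given in the sources used here. The labels describe a 3′ tag kit for all libraries, whereas the study's methods name another RNA kit for hippocampi, so the hippocampal library type is uncertain. No molecular identifiers are described, and whether counting used strand is not given. No column of another sample was present. Hippocampal identifiers were matched to gene names for 48469 of 48795 rows.

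Genes were filtered by group with filterByExpr, scaled by TMM and tested with edgeR 4.0.16 (quasi-likelihood F test, robust fit, R 4.3.3). The microglial fit held all 6 groups and the hippocampal fit both genotypes. Benjamini-Hochberg adjusted p under 0.05 over all genes tested was the call. SE is the absolute log2 fold change divided by the square root of F, and intervals are 95%. Hippocampal members were also tested by exact permutation of log2 CPM with a prior count of 2. Alternatives were DESeq2 1.42.0, RLE scaling, no filter, the study's fold thresholds (log2 of 0.5 in hippocampus and 1 in microglia), only the compared groups in the fit, covariates, the replicate block and each library left out. The tests were checked on simulated counts.

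All 8 members are named with their values. From the pathway lists, up to 2 called genes that rose and 2 that fell most per list and comparison are named, with Stat2, Tbk1, Ikbke, Spi1 and Cgas, and for likeness the 3 most correlated genes per member. Ifnb1 outside the HT-DNA comparison and genes overlapping a member are named beyond this rule where a result touches them. 1 gene of that rule is not reported here. The members, lists and tests were chosen with earlier results of these data known. Per library, 17037459 to 25174764 counts in microglia and 25953296 to 35779977 in hippocampi limit the precision of low genes such as Irf4.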

Additional observations from a re-analysis of the deposited data

Results flagged for a closer look

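The response to a stimulus differed between Cgas+/+ and Cgas-/- microglia for 3 members with tau, where 7.55% of all genes passed, and 6 with HT-DNA, where 34.5% passed, by the edgeR interaction test. The 6 include Irf4, which rests on 3 to 18 counts per library. With tau the log2 response in Cgas-/- microglia minus that in Cgas+/+ microglia was 3.26 for Irf7, 1.21 for Irf9 and -0.21 for Irf5. With HT-DNA it was -1.46 for Irf1, -0.63 for Irf2, 2.65 for Irf4, -0.73 for Irf5, -1.76 for Irf7 and -0.50 for Irf8. On the CPM scale the Irf7 difference with tau was -220.1 ± 38.4 and that of Irf9 was 35.1 ± 3.87 (SE), so the sign for Irf7 depends on the scale and that for Irf9 does not.

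Single mice stood apart from their group in 2 of 16 groups of hippocampal values, where chance marks about 1 in 20 groups. Ntg mouse 68 had 30.3 CPM of Irf2 and the nearest Ntg mouse 28.2 CPM. Ntg mouse 71 had 3.14 CPM of Irf5 and the nearest 3.80 CPM.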

How the results depend on the processing

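The alternatives gave 723 values for the 54 called member results, of which 634 kept direction and call, 89 kept the direction and lost the call, and 0 reversed. Counting only log2 fold changes past the study's thresholds left 2 members for tau (3.4% of all genes) and 2 for HT-DNA (8.11%) in Cgas+/+ microglia, 3 for tau in Cgas-/- microglia (2.73%), 4, 2 and 6 for genotype with vehicle (10%), tau (10.4%) and HT-DNA (18.1%), 0 for tau against HT-DNA (3.25%), 2 for the tau interaction (0.892%) and 3 for the HT-DNA interaction (6.14%). Irf4, with 3 to 18 counts per library, is among those left for genotype with vehicle, genotype with HT-DNA and the HT-DNA interaction. Its calls between genotypes were lost without a filter on low counts. Without that filter 1 member, Irf9, was called in hippocampus beside 0.582% of all genes (Irf7 adjusted p = 0.053, Irf8 0.0673, edgeR). Leaving out 1 mouse gave 0 to 4 members there, and 0.0733% to 5.67% of all genes, against 1.5%. DESeq2 called 5.54% of genes there. No filter gave 12.8%, 22.0% and 7.88% of genes for tau in Cgas+/+, HT-DNA in Cgas+/+ and tau in Cgas-/- microglia.

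Reversals fell on differences that were not called in the first place. Irf9 in the HT-DNA interaction was -0.00635 with RLE scaling, -0.00611 with DESeq2, -0.0296 with only the compared groups and -0.034 to 0.0706 when 1 library was left out. With only the compared groups, Irf8 in the tau interaction was 0.000994 and Irf3 in the HT-DNA interaction -0.0147. Leaving out 1 library gave -0.0324 to 0.0151 for that Irf8 value, -0.0549 to 0.106 for that Irf3 value, -0.0829 to 0.287 for Irf1 in the tau interaction, -0.286 to 0.402 for Irf4 between genotypes with tau, and -0.0541 to 0.0402 and -0.0814 to 0.0385 for Irf3 with tau and HT-DNA in Cgas-/- microglia. In hippocampus, Irf2 was -0.00924 with the homeostatic marker covariate and -0.0122 to 0.0344 with 1 mouse left out. In the sex interaction Irf5 was 0.183 with that covariate, and with 1 mouse left out Irf5 was -0.464 to 0.29, Irf7 -1.29 to 0.317 and Irf9 -0.302 to 0.485. The cause of these changes was not tested.

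Deviations of same-numbered microglial libraries correlated at -0.085 to 0.0823 over 45 pairs, so no sign of pairing by replicate number was seen. Whether libraries shared a culture or a day cannot be judged from these values, which cover same-numbered pairs alone. A replicate block left the number of members called as it was in all 10 microglial comparisons, with 28.3% of genes for tau and 47.7% for HT-DNA in Cgas+/+ microglia.

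Depth limits Irf4, with at most 21 counts per library. The hippocampal calls rest on 13 mice that vary widely within P301S, and the microglial p-values on 3 libraries per group.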
